A study of Homo sapiens with 9 samples.

Results

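The AP-1 transcription factor family is described here by 10 genes: FOS, FOSB, FOSL1 and FOSL2 of the Fos family, JUN, JUNB and JUND of the Jun family, and the related factors BATF3, JDP2 and MAFF. They were chosen by name, with earlier results of these data known, and all 10 were found among the 26485 genes measured. The RNA came from MDA-MB-231, a cell line of human triple-negative breast cancer with a mesenchymal character, grown in DMEM with fetal bovine serum. The control cells stably expressed a non-specific (NS) shRNA, and the other cells stably expressed ASAH1 shRNA #1 or ASAH1 shRNA #2. Both ASAH1 hairpins target ASAH1, which encodes acid ceramidase, the lysosomal enzyme that cleaves ceramide. Each group had 3 libraries. All groups came from 1 cell line, and 1 NS hairpin served as the control for both knockdowns. The submitters call the libraries of a group biological replicates without saying whether the cultures were derived separately, so the p-values measure the spread between these libraries. Both knockdowns were compared with the same NS shRNA libraries, and the 2 sets of differences therefore share their control.

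The reads on genes per library ran from 30989598 to 34867548 in NS shRNA, from 23806003 to 39791698 in shRNA #1 and from 35653318 to 49659106 in shRNA #2. ASAH1 had a log2 fold change of -1.76 with shRNA #1 and -2.63 with shRNA #2 (limma adjusted p = 9.49e-09 and 5.42e-10), in the direction of the labels. The mesenchymal and basal markers VIM, CAV1, CD44, EGFR and AXL were present in every library, with at least 2667 reads each. The receptor genes ESR1 and PGR had at most 2 reads, and CD3E, CDH5 and ALB, markers of T cells, endothelium and liver, had at most 4 reads in any library. The leukocyte marker PTPRC had 1 to 8 reads. PECAM1, an endothelial and platelet marker, had 39 to 102 reads. In bulk RNA, a change in the number of cells that express a gene and a change in the RNA of each cell cannot be told apart.

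AP-1 is a dimer of basic leucine zipper proteins. Jun proteins pair with each other or with Fos proteins, whereas Fos proteins need a Jun partner, and the dimers bind the TPA response element TGACTCA (TRE) and, with some partners, the cyclic AMP response element TGACGTCA (CRE). FOS and FOSB are immediate early genes whose transcription follows ERK signalling to serum response factor and its ELK cofactors, JUN is activated by JNK, and FRA-1, the product of FOSL1, is stabilized by ERK and is abundant in mesenchymal-like breast cancer lines. BATF3 and JDP2 are small zipper proteins that pair with Jun and lack a classical activation domain, JDP2 acting mostly as a repressor, and MAFF is a small Maf protein that pairs with CNC factors such as NRF2.

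The promoters of the members were examined for these sites because AP-1 and CREB/ATF dimers can act on the AP-1 genes themselves. RefSeq promoter windows (GRCh38.p14, 250 bases before to 50 bases after the annotated start) were at hand for 8 of the 10 members, all but FOSL1 and BATF3. Searched on both strands, an exact CRE was found in JUND, starting 200 bases before the start site, and in MAFF, starting 54 bases before it. The same motif was present in 1.98% of 27305 RefSeq promoters. An exact TRE was found only in FOSL2 among the 8, just after the start, and in 4.92% of all promoters. The CArG box (CC, 6 bases of A or T, GG), which serum response factor binds, was found in 0 of the 8 windows and in 1.29% of all promoters. The windows reach only 250 bases before the start, so sites further upstream were not searched and may exist. When 1 changed base was allowed, a choice made after the windows had been seen, CRE-like sites were found in 5 of the 8 windows and in 12.2% of all promoters, and TRE-like sites in 5 of the 8 and in 47.4%. Log2 fold changes of these 5 genes with shRNA #1 were 2.89 (FOSB), 1.59 (MAFF), 1.30 (JUN), 0.67 (FOSL2) and -0.28 (JUND). The same genes had 2.47, 1.67, 0.88, 0.20 and -0.40 with shRNA #2. FOS, JUNB and JDP2 had no site within 1 changed base of the CRE in their windows and changed by 1.28, 0.77 and 0.73 with shRNA #1. Their changes with shRNA #2 were 0.51, -0.08 and 1.34. The FOS window does hold tgacgttt, which differs from the CRE by more than the 1 base allowed and was not counted. FOS is therefore without a CRE-like site only at this cut-off. Whether a site goes with the size or direction of a change was not tested. The stretches that hold the CRE-like sites are given for all 5 genes. The sites are in capitals, and a match describes the letters only, not a bound site.
FOSB, chr19:45467846-45467945, plus strand: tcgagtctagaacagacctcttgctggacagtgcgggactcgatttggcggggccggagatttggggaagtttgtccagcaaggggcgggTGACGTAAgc
FOSL2, chr2:28392644-28392801, plus strand: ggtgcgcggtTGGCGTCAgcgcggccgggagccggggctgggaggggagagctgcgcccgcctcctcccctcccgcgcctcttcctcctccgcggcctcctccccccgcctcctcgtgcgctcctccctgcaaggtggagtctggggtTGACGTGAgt
JUN, chr1:58784105-58784204, minus strand: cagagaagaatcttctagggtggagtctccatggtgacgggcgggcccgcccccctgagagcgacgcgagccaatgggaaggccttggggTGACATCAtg
JUND, chr19:18281702-18281832, minus strand: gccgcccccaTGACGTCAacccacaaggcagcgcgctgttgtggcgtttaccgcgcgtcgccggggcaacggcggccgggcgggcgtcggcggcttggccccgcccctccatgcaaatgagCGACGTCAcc
MAFF, chr22:38201850-38201949, plus strand: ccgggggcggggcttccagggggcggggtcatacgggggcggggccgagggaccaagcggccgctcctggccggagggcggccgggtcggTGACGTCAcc
The CRE-like site begins 60 bases before the start in FOSB and 67 bases before it in JUN. FOSL2 holds one 66 bases and another 204 bases before its start, and JUND holds a second site at 89 bases. These distances are from the RefSeq start. In GENCODE the MAFF site (chr22:38201940-38201947) also lies in the first exon of 2 protein-coding MAFF transcripts that start earlier, and both FOSL2 sites lie in an intron of 1 FOSL2 transcript that starts further upstream.

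Knockdown of ASAH1 was accompanied by higher mRNA of most AP-1 genes with both hairpins. With shRNA #1, 9 of the 10 members rose and 1, JUND, fell (limma, adjusted p below 0.05). In the same comparison 32.8% of the 14341 genes tested rose and 33.3% fell. With shRNA #2, 8 members rose, JUND fell and JUNB did not pass the test, against 33.5% of 14250 genes that rose and 33.4% that fell. The same 8 members rose with both hairpins, in comparisons that share their NS shRNA libraries. How many of all genes rose with both was not counted, so the 8 cannot be set against a share of all genes. FOS, FOSL2 and BATF3 lost their call with shRNA #2 under some of the alternatives run. The median log2 fold change of the members was 0.75 with shRNA #1 and 0.39 with shRNA #2, and the median of all genes tested was 0.00128 and 0.0128. Since about 1 in 3 genes was called in each direction, the count of members called says less than their sizes, which ran from -0.28 to 2.89 with shRNA #1 and from -0.40 to 2.47 with shRNA #2. Without regard to direction, the median size of change over all genes tested was 0.367 with shRNA #1 and 0.404 with shRNA #2. JUND changed by less than this with both hairpins, and FOSL1, FOSL2, JUNB and BATF3 did so with shRNA #2. Values below are normalized counts, that is, reads divided by the size factor of the library, and log2 fold changes are on the log2(normalized count + 1) scale. The NS shRNA libraries carry slightly different normalized counts beside each hairpin because the size factors were set separately.

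**Figure D1:**
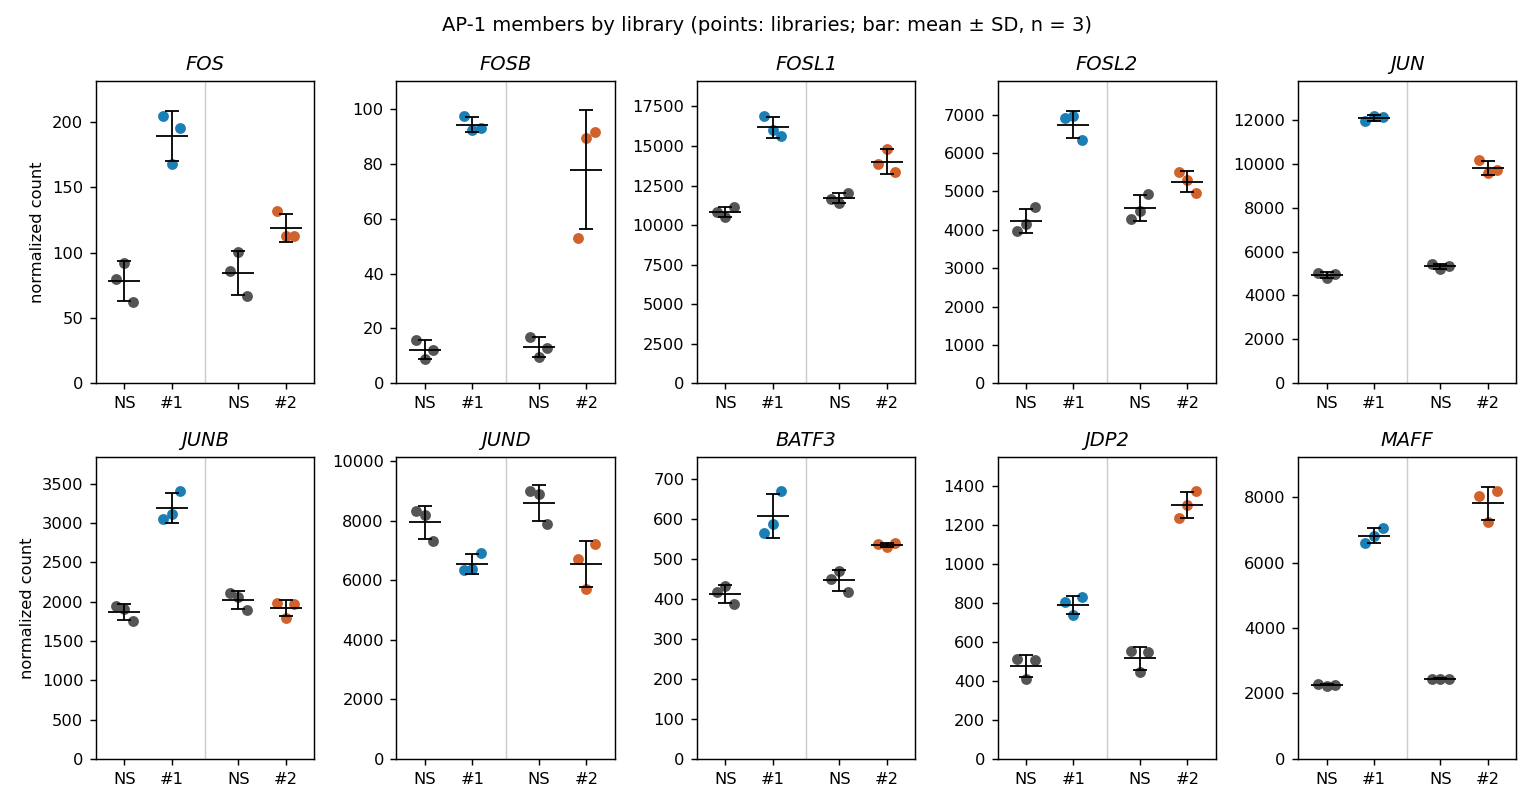
Normalized count (y axis, linear, from 0) of each AP-1 member in each library, with NS shRNA in grey, ASAH1 shRNA #1 in blue and ASAH1 shRNA #2 in orange; the bar is the mean and the whisker the SD of 3 libraries. The groups overlap only for JUNB with shRNA #2, but how often groups separate among all genes was not counted. JUND is the member whose knockdown libraries all lie below NS shRNA with both hairpins.

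FOS, the founding member of the family and a short-lived immediate early factor (chr14:75278826-75282230, plus strand, hg38), was scarce in these cells. Its normalized counts were 79.5, 92.2 and 61.9 in NS shRNA and 205, 168 and 195 in shRNA #1. All shRNA #1 libraries lay above all NS libraries. The means were 77.9 ± 15.3 and 189 ± 19.1 (SD, n = 3), a 2.43-fold rise and a log2 fold change of 1.28 (SE 0.16, limma adjusted p = 8.18e-05). Beside shRNA #2 the NS libraries had 85.8, 100.1 and 66.7, and the knockdown libraries had 131.5, 112.7 and 112.5. The groups were again apart, but the gap was narrow. FOS rose 1.41-fold with shRNA #2, with a log2 fold change of 0.51 (SE 0.17, limma adjusted p = 0.0219), and this call rested on single libraries: it was 0.35 (adjusted p = 0.0800) without NS replicate 3 and 0.43 (adjusted p = 0.0857) without shRNA #2 replicate 1.

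FOSB, a relative of FOS with the same kind of transient induction (chr19:45467995-45475179, plus strand), had the largest fold change of the 10 members with both hairpins and the lowest level. NS shRNA libraries had 9 to 15 reads and knockdown libraries 49 to 118. In normalized counts FOSB was 15.7, 8.83 and 12.0 in NS shRNA and 97.6, 92.4 and 93.2 in shRNA #1. No library of one group came near the other. The mean rose 7.75-fold, from 12.2 ± 3.44 to 94.4 ± 2.82, with a log2 fold change of 2.89 (SE 0.23, limma adjusted p = 4.23e-06), larger in size than that of 99.3% of the genes tested. With shRNA #2 the libraries had 52.8, 89.4 and 91.5 beside 16.9, 9.59 and 12.9 in NS shRNA. Replicate 1 of shRNA #2 was the lowest of the 6 knockdown libraries but still above every NS library. The log2 fold change was 2.47 (SE 0.29, limma adjusted p = 2.97e-05), a 5.92-fold rise.

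FOSL1, which encodes FRA-1 (chr11:65892049-65900573, minus strand), was the most abundant member per kilobase. Its normalized counts were 10809, 10498 and 11160 in NS shRNA and 16910, 15984 and 15635 in shRNA #1, groups that stood well apart. FOSL1 rose 1.495-fold with shRNA #1, with a log2 fold change of 0.58 (SE 0.05, limma adjusted p = 4.86e-06). With shRNA #2 the counts were 13887, 14838 and 13333, beside 11663, 11396 and 12033 in NS shRNA. The shift was smaller but all 3 knockdown libraries were above all NS libraries. The rise was 1.20-fold, a log2 fold change of 0.26 (SE 0.06, limma adjusted p = 0.00174).

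FOSL2, which encodes FRA-2 (chr2:28392448-28417317, plus strand), followed the same order. It had 3960, 4144 and 4585 normalized counts in NS shRNA and 6912, 6973 and 6337 in shRNA #1. That is a 1.59-fold rise, with a log2 fold change of 0.67 (SE 0.06, limma adjusted p = 1.35e-05). With shRNA #2 it had 5496, 5299 and 4960, and the NS libraries had 4273, 4499 and 4943. The lowest shRNA #2 library and the highest NS library nearly met. FOSL2 changed by 0.20 on the log2 scale (SE 0.07, limma adjusted p = 0.0217). It lost its call without NS replicate 1 (0.15, adjusted p = 0.0853), without NS replicate 2 (0.19, adjusted p = 0.0733) and without shRNA #2 replicate 1 (0.17, adjusted p = 0.0969), and with upper quartile scaling it was 0.11 (adjusted p = 0.153).

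JUN, which encodes c-Jun, the main activating partner of the Fos proteins (chr1:58776845-58784048, minus strand), rose with both hairpins. NS shRNA libraries had 5021, 4786 and 4960 normalized counts and shRNA #1 libraries 11954, 12183 and 12112. Libraries within a group differed little beside the distance between the groups. The mean went from 4922 ± 122 to 12083 ± 117, 2.46-fold, with a log2 fold change of 1.30 (SE 0.04, limma adjusted p = 1.95e-08). The shRNA #2 libraries had 10155, 9558 and 9719 beside 5418, 5195 and 5348 in NS shRNA. JUN was thus 1.84-fold higher with shRNA #2, with a log2 fold change of 0.88 (SE 0.05, limma adjusted p = 2.13e-07).

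JUNB, a Jun protein that activates weakly and can oppose c-Jun (chr19:12791486-12793315, plus strand), rose with shRNA #1 and did not pass the test with shRNA #2. It had 1952, 1903 and 1755 normalized counts in NS shRNA and 3050, 3123 and 3403 in shRNA #1. The log2 fold change was 0.77 (SE 0.06, limma adjusted p = 4.62e-06), a 1.71-fold rise with no overlap of the groups. With shRNA #2 the libraries had 1982, 1799 and 1967, and the NS libraries had 2106, 2066 and 1892. These groups overlapped. The log2 fold change was -0.08 with a 95% interval from -0.23 to 0.07 (limma adjusted p = 0.334).

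JUND, the Jun protein that is made in most resting cells (chr19:18279694-18281622, minus strand), was the member that fell with both hairpins. Its normalized counts were 8332, 8210 and 7316 in NS shRNA and 6358, 6372 and 6936 in shRNA #1. All shRNA #1 libraries were below all NS libraries. The mean went from 7953 ± 555 to 6555 ± 329, a log2 fold change of -0.28 (SE 0.06, limma adjusted p = 0.00299). With shRNA #2 the libraries had 6713, 5702 and 7217, beside 8990, 8912 and 7888 in NS shRNA. JUND fell here with a log2 fold change of -0.40 (SE 0.09, limma adjusted p = 0.00207), from 8597 ± 615 to 6544 ± 772. Replicate 2 was the lowest of the shRNA #2 libraries, and again no knockdown library reached the NS libraries.

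BATF3, a Jun partner best known from dendritic cells (chr1:212686417-212699840, minus strand), had 419, 434 and 389 normalized counts in NS shRNA and 566, 588 and 670 in shRNA #1. It rose by a log2 fold change of 0.55 (SE 0.09, limma adjusted p = 3.25e-04). With shRNA #2 it had 538, 531 and 540, beside 452, 471 and 419. The groups were apart, with a log2 fold change of 0.26 (SE 0.08, limma adjusted p = 0.0133). Without NS replicate 3 it was 0.22 (adjusted p = 0.0535) and with upper quartile scaling 0.17 (adjusted p = 0.0772), both above the threshold of 0.05.

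JDP2, the repressor that pairs with Jun (chr14:75427716-75474111, plus strand), differed from the Fos and Jun genes in being higher with shRNA #2 than with shRNA #1. It had 513, 411 and 506 normalized counts in NS shRNA and 802, 738 and 827 in shRNA #1. JDP2 rose with a log2 fold change of 0.73 (SE 0.10, limma adjusted p = 1.09e-04). With shRNA #2 it had 1236, 1299 and 1370 beside 553, 446 and 546 in NS shRNA. The rise was 2.53-fold, a log2 fold change of 1.34 (SE 0.09, limma adjusted p = 7.34e-07), and the groups were far apart with both hairpins.

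MAFF, the small Maf protein (chr22:38200767-38216507, plus strand), rose with both hairpins and, relative to its mean, varied least of the members within the NS libraries. The counts were 2278, 2243 and 2271 in NS shRNA and 6598, 6828 and 7054 in shRNA #1. It rose from 2264 ± 18.5 to 6826 ± 228, with a log2 fold change of 1.59 (SE 0.05, limma adjusted p = 1.06e-08), larger in size than that of 95.6% of genes. With shRNA #2 the libraries had 8036, 7232 and 8176, and the NS libraries had 2458, 2435 and 2449. The log2 fold change was 1.67 (SE 0.06, limma adjusted p = 1.09e-08), a 3.19-fold rise. After FOSB, MAFF had the largest change of the members with each hairpin.

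The hairpins were then compared with each other on the reads of all 9 libraries. 6 members were lower with shRNA #2 than with shRNA #1, 1 was higher, and 3 did not pass the test (edgeR quasi-likelihood test, adjusted p below 0.05). Over all 14381 genes tested, 32.5% were lower and 31.4% higher with shRNA #2. The largest difference was in JUNB, with a log2 ratio of shRNA #2 to shRNA #1 of -0.86 (95% interval -1.003 to -0.72, edgeR adjusted p = 5.45e-07), followed by FOS at -0.79 (edgeR adjusted p = 7.63e-04). FOSL2 differed by -0.49, JUN by -0.43, FOSL1 by -0.33 and BATF3 by -0.31, with adjusted p from edgeR of at most 0.00426. JDP2 alone among the members was higher with shRNA #2, with a log2 ratio of 0.60 (95% interval 0.42 to 0.78, edgeR adjusted p = 6.91e-05). The intervals of the other three included 0 and ran from -0.84 to 0.07 for FOSB, from -0.31 to 0.06 for JUND and from -0.05 to 0.19 for MAFF. ASAH1 itself was lower with shRNA #2 by a log2 ratio of -0.89, and whether the depth of knockdown has a part in these differences was not tested.

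**Figure D2:**
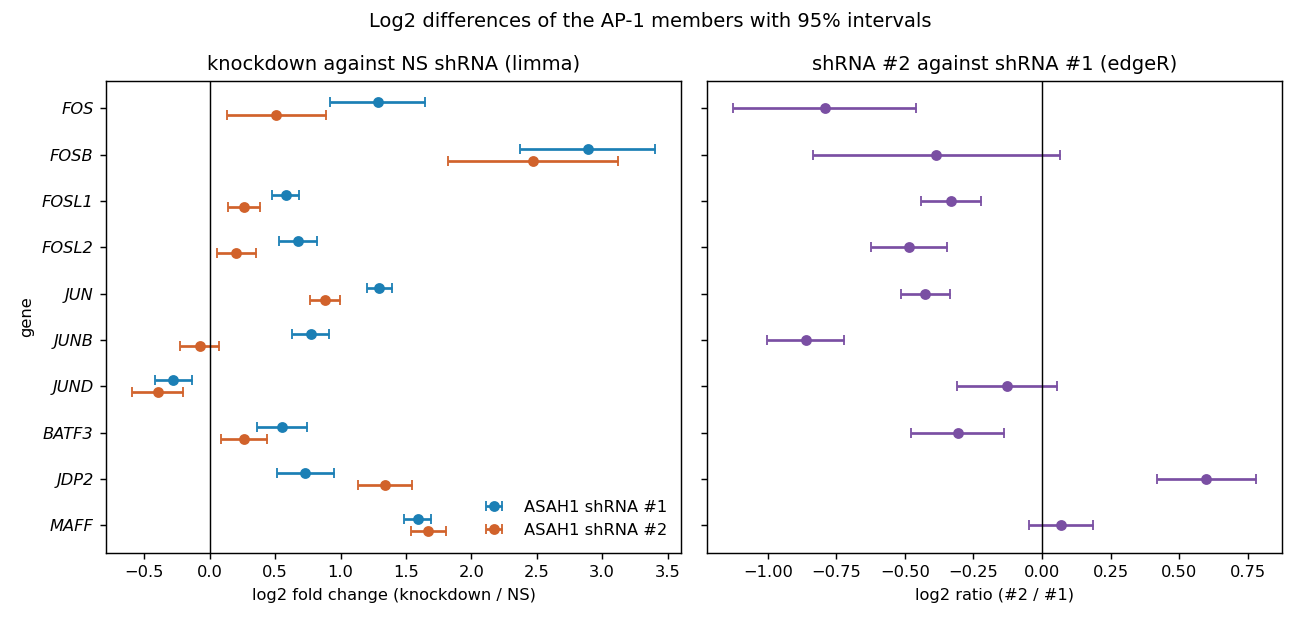
Left, log2 fold change of each AP-1 member with shRNA #1 (blue) and shRNA #2 (orange) against NS shRNA from limma; right, log2 ratio of shRNA #2 to shRNA #1 from edgeR; points are estimates and bars 95% intervals. FOS, FOSL1, FOSL2, JUN, JUNB and BATF3 lie below 0 on the right and JDP2 above 0, and the intervals of FOSB, JUND and MAFF include 0.

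Levels of different members were compared per kilobase of exon, counting all annotated exons of a gene. The order depends on this length. It is 5611 bases for MAFF, whose longest transcript has 3284, and 7162 for FOSL2, whose longest has 6713. The order and the crossings below were read with the exon length alone and can differ with another length. In NS shRNA the order was FOSL1 (5735 normalized counts per kilobase), JUND (4123), JUN (1358), JUNB (1022), FOSL2 (591), MAFF (404), BATF3 (161), JDP2 (76.2), FOS (24.4) and FOSB (2.19), in the scaling used for shRNA #1, and neighbours in this order were apart by more than their SDs. With shRNA #1 JUND, at 3398 ± 171 per kilobase, and JUN, at 3334 ± 32.3, no longer differed beyond the spread, and MAFF (1217) passed FOSL2 (941). With shRNA #2 MAFF, at 1393 ± 90.8, also passed JUNB, at 1047 ± 55.6, and JDP2, at 208 ± 10.7, did not differ from BATF3, at 209 ± 1.91, beyond the spread. The summed level of the 10 members went from 13496 ± 209 to 19646 ± 178 per kilobase with shRNA #1, 1.46-fold, and from 14588 ± 221 to 17170 ± 225 with shRNA #2, 1.18-fold. FOSL1 held the largest part of this sum in every group, so the strong rises of FOSB and FOS added little to it.

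The make-up of the sum was tested by exact permutation over libraries, where 3 against 3 libraries cannot give a p below 0.1. The Fos family held 47.1 ± 1.94% of the summed level in NS shRNA, 48.8 ± 1.81% with shRNA #1 and 47.9 ± 2.93% with shRNA #2. In this share neither knockdown differed from NS shRNA beyond the spread of libraries (two-sided exact permutation test, p = 0.3 with shRNA #1 and p = 0.7 with shRNA #2). The shares of the Jun family and of single members were looked at after these values were seen. The Jun family held 48.2 ± 1.96% in NS shRNA, 43.2 ± 1.47% with shRNA #1 and 41.6 ± 2.48% with shRNA #2, with no overlap between NS shRNA and either knockdown (p = 0.1 each by exact permutation, the smallest possible). The summed level of the Jun family itself was not lower: it was 6503 ± 340.2 normalized counts per kilobase in NS shRNA and 8477 ± 283 with shRNA #1, and 7029 ± 378 and 7146 ± 498 beside shRNA #2, where the groups overlapped. The summed level of the Fos family was higher, at 6352.5 ± 205.3 in NS shRNA and 9590 ± 385.5 with shRNA #1. Beside shRNA #2 it was 6866.1 ± 201.5 in NS shRNA and 8214.1 ± 423.7 in the knockdown. The summed level of neither family was tested. Within the Jun family the 2 main members moved in opposite ways. JUND went from 30.5% of the sum to 17.3% and 19.7%, and JUN from 10.1% to 17.0% and 15.8%. MAFF went from 2.99% to 6.19% and 8.11%. The level of JUND itself was 0.82 and 0.76 of that in NS shRNA, while the sum of the 10 members rose 1.46-fold and 1.18-fold. The shares of the Jun family and of single members were read with the exon length alone and can differ with another length. For JUND, JUN and MAFF neither knockdown overlapped NS shRNA (p = 0.1 each by exact permutation, 0.18 after Benjamini-Hochberg adjustment over the 18 share tests), and FOSL1 stayed between 41.1% and 46.4% in every library.

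**Figure D3:**
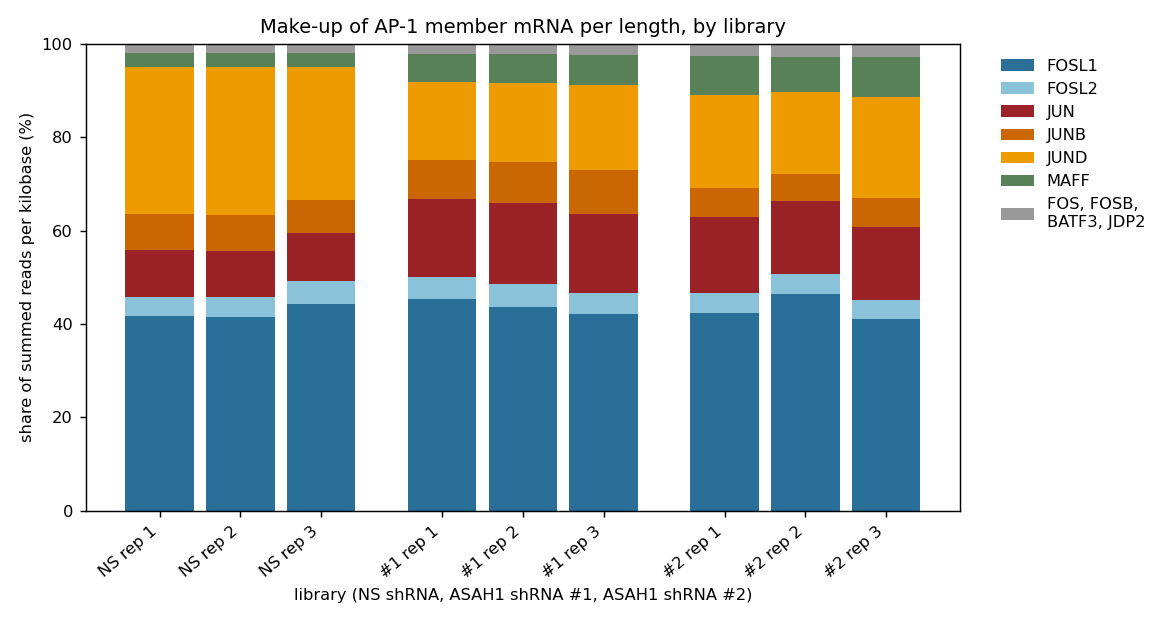
Share (y axis, percent) of each AP-1 member in the summed normalized counts per kilobase of the 10 members, one stacked bar per library. FOSL1 takes 41.1% to 46.4% of every bar, JUND takes a smaller share in the 6 knockdown bars than in the 3 NS bars, and JUN and MAFF take a larger one.

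Sets of genes around AP-1, listed from textbook knowledge but with earlier results of these data known, were read from the same limma fits. Their counts stand beside the shares of all genes, 32.8% higher and 33.3% lower with shRNA #1 and 33.5% higher and 33.4% lower with shRNA #2. Among 10 other zipper partners of the ATF, BATF and Maf families, 9 were tested. With shRNA #1, 4 rose and 1 fell, and with shRNA #2, 3 rose and 3 fell, with medians of 0.33 and -0.17, so that the counts with shRNA #2 were at the share of all genes. ATF3, a stress-induced factor that pairs with Jun, rose from 236 ± 35.5 to 2715 ± 34.2 normalized counts with shRNA #1, a log2 fold change of 3.53 (limma adjusted p = 9.49e-09), and by 2.29 with shRNA #2. The small Maf genes MAFG and MAFK, close relatives of MAFF, rose as MAFF did but by less. MAFG had log2 fold changes of 0.67 with shRNA #1 and 1.01 with shRNA #2, and MAFK of 0.66 and 0.91.

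Regulators of AP-1 (14 genes, all tested: kinases, serum response factor with its cofactors, and factors of Jun turnover) had log2 fold changes between -0.78 and 0.74 with both hairpins. With shRNA #1, 3 rose, 2 fell and 9 did not pass, and with shRNA #2, 8 rose, 0 fell and 6 did not pass. The medians were -0.007 and 0.24. The shares called higher and lower with shRNA #1 were below those of all genes. Those called higher with both hairpins were SRF, the serum response factor, with log2 fold changes of 0.47 and 0.71, MAPK8, which encodes JNK1, with 0.74 and 0.18, and RPS6KA1, which encodes the ERK-activated kinase RSK1, with 0.21 and 0.46. These are mRNA levels, and the phosphorylation that sets the activity of these proteins was not measured here. By immunoblot, the paper reports less phosphorylated ERK in these cells with ASAH1 shRNA. How that relates to the mRNA levels was not tested.

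Known AP-1 targets included both the largest rises of the lists and genes that fell. Of 18 listed, 15 were tested with shRNA #1, where 8 rose and 2 fell (median 0.81), and 14 with shRNA #2, where 6 rose and 5 fell (median -0.07). With shRNA #2 both shares were not far above the 33.5% and 33.4% of all genes. The cytokine gene IL11 rose from 92.9 ± 17.8 to 2196 ± 75.1 normalized counts with shRNA #1 and from 100.4 ± 19.1 to 1462 ± 104 with shRNA #2, log2 fold changes of 4.56 and 3.86. IL6, another cytokine gene of the same family, rose by 1.69 and 1.09, and VEGFA, an angiogenic factor, by 1.38 and 2.37. The collagenase gene MMP1 rose by 3.73 with shRNA #1 and 0.76 with shRNA #2. The protease inhibitor gene TIMP1 fell, with log2 fold changes of -0.33 and -0.47. Among the called targets 2, both protease genes, took opposite directions with the hairpins. PLAU, which encodes urokinase, rose from 20522 ± 298 to 51614 ± 796 with shRNA #1 and fell from 22183 ± 383 to 6841 ± 284 with shRNA #2 (limma adjusted p = 1.16e-08 and 5.07e-09). MMP9, a gelatinase, had log2 fold changes of 1.84 and -1.95 (limma adjusted p = 3.61e-05 and 4.02e-04), but at a low level. It went from 26.0 ± 6.68 to 94.0 ± 6.68 normalized counts with shRNA #1 and from 28.1 ± 7.15 to 6.46 ± 1.21 with shRNA #2. With shRNA #2 it passed the filter through the NS shRNA libraries. With shRNA #2, JUN, FOSL1 and the targets IL11, VEGFA, IL6 and MMP1 were higher than in NS shRNA, while TIMP1, PLAU and MMP9 were lower. How the targets relate to the mRNA of the AP-1 members was not tested.

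Immediate early genes outside AP-1 were read for comparison with FOS and FOSB. Of 10 listed, 9 were tested; with shRNA #1, 8 rose and 0 fell (median 1.35), and with shRNA #2, 4 rose and 1 fell (median 0.64). With only 9 genes tested, the share that rose with shRNA #2 was not far above the 33.5% of all genes, and the share that fell was below the 33.4%. EGR1, a zinc finger factor induced with FOS by ERK, rose from 270 ± 48.5 to 1898 ± 119 normalized counts with shRNA #1, a log2 fold change of 2.82 (limma adjusted p = 7.34e-08). With shRNA #2 it rose from 292 ± 51.8 to 503 ± 22.4, a log2 fold change of 0.80 (limma adjusted p = 1.78e-04). BTG2, an antiproliferative gene, rose by 1.83 and 1.06, NR4A1, a nuclear receptor gene, by 1.35 and 1.10, and IER3, a stress-inducible gene, by 1.02 and 1.10.

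**Figure D4:**
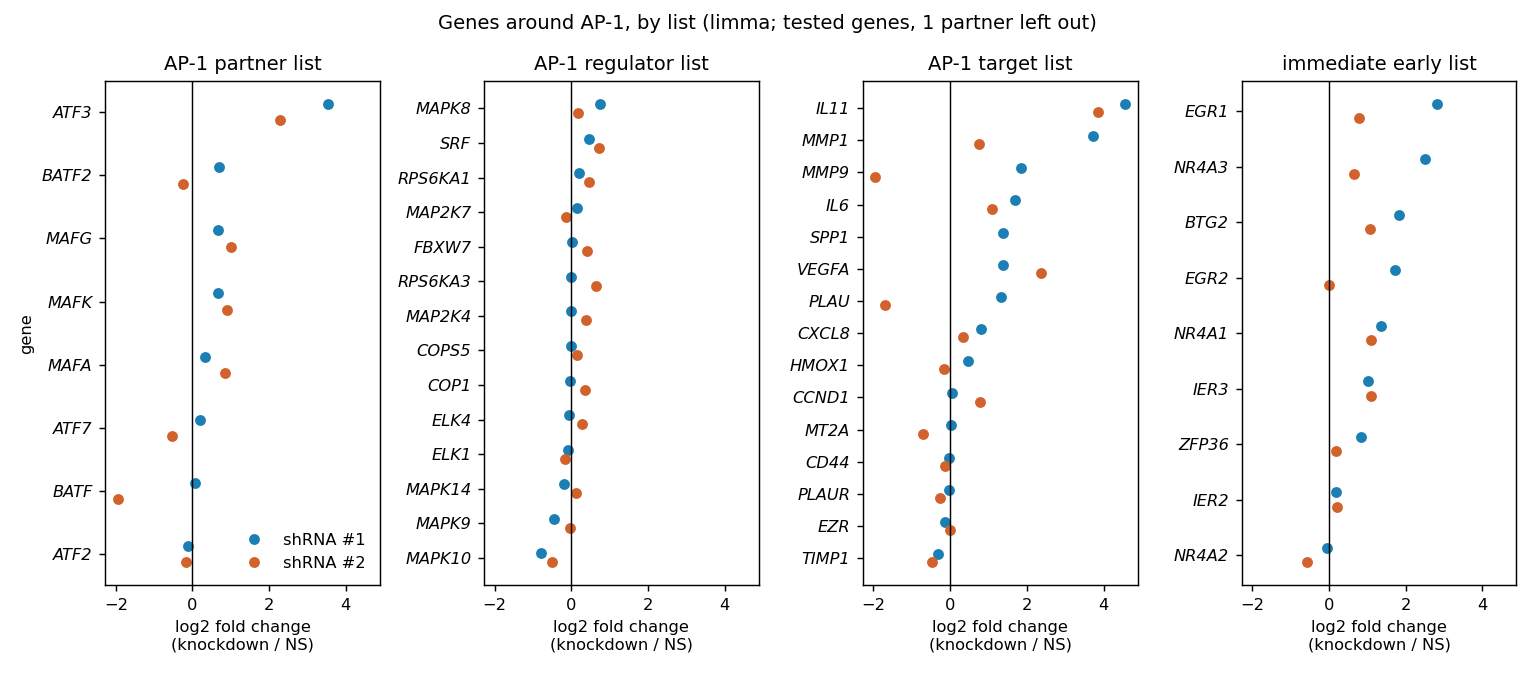
Log2 fold change (x axis) of each tested gene of the 4 lists, 1 partner gene left out, with shRNA #1 (blue) and shRNA #2 (orange) against NS shRNA, from limma, with genes ordered by shRNA #1. ATF3 leads the partners and IL11 the targets with both hairpins, the regulators lie between -0.78 and 0.74, and PLAU and MMP9 lie on opposite sides of 0.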

How the data were processed

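Poly(A) or ribosome-depleted RNA (the submitters' descriptions name both) of 9 libraries was sequenced with strand kept. The authors used Trimmomatic 0.36 for trimming, STAR 2.7.1a for alignment to hg38, reverse-strand htseq-count on UCSC gene models, and DESeq2 1.28 for each hairpin in turn beside NS shRNA; another paragraph of their methods names Bowtie2, RSEM and edgeR. The deposited normalized signal is a read count divided by 1 size factor per library. Whole reads were recovered (100.0% of values within 0.1), and the NS shRNA reads had 0 differences between the tables. The deposited fold changes and p-values were not used. For 28 genes whose symbols one table gives as dates, the symbols of the other were taken.

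Each hairpin was compared with NS shRNA within its table by limma 3.58.1 with an intensity trend on log2(signal + 1), two-sided, for genes averaging 10 or more, and p-values were adjusted by Benjamini-Hochberg and called at 0.05. For hairpin against hairpin, edgeR 4.0.16 (quasi-likelihood, TMM, mean of at least 10 reads) was run on recovered reads of all 9 libraries. Fits used R 4.3.3, and figures used Python 3.11.15 with matplotlib 3.10.9. The fits were tested on simulated data with far fewer changed genes than were called here and with larger changes than many members had. That test does not check the scaling or the smaller changes in these data. Lengths and coordinates are from GENCODE on hg38. Named genes are the 10 members, ASAH1, and in each list up to 4 per direction called alike with both hairpins, plus those called in opposite directions. The values of 1 such partner gene are not reported here. The members and lists were chosen with earlier results of these data known. Alternatives changed the pseudocount, filter, trend, scaling, tool (DESeq2 1.42.0 among them), samples, replicate block and single libraries. No batch is named in the labels. Deviations of same-numbered NS and knockdown libraries had correlations from -0.303 to -0.082 and those of the 2 knockdowns from 0.0515 to 0.199, not all over 0.1, so the numbers were not taken to pair the samples. Replicates differed by more than counting noise. Few reads limit the precision of FOSB, with 9 to 15 reads in the NS shRNA libraries.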

Additional observations from a re-analysis of the deposited data

Results flagged for a closer look

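For 7 members the effect of knockdown differed between the hairpins by edgeR's quasi-likelihood test, adjusted over all genes tested. On the log2 scale, shRNA #2 less shRNA #1 gave -0.79 for FOS, -0.33 for FOSL1, -0.49 for FOSL2, -0.43 for JUN, -0.86 for JUNB, -0.31 for BATF3 and 0.60 for JDP2. For FOS, FOSL1, FOSL2, JUN and BATF3 both hairpins gave a rise over NS shRNA and the sizes differed. For JUNB only the rise with shRNA #1 passed the test against NS shRNA. JDP2 was the member with the larger rise under shRNA #2. Between the hairpins 32.5% of all genes were lower and 31.4% higher with shRNA #2.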

How the results depend on the processing

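The counts of members called (10, 9 and 7 in the 3 comparisons) and of list genes called stayed within 1.5 times under every alternative run. The Fos family share kept its direction only for shRNA #1 minus NS shRNA, at 1.73 percentage points, where it ran from 0.853 (without shRNA #1 replicate 1) to 2.85 (without NS replicate 3) and was 0.347 with the longest transcript and 3.64 over the 7 Fos and Jun members alone. It was 2.66 without shRNA #1 replicate 3. For shRNA #2 minus NS shRNA it was 0.776 percentage points, -1.11 with the longest transcript as length and 4.06 over the 7 Fos and Jun members alone, and leaving out single libraries gave -0.849 (without shRNA #2 replicate 2) to 1.99. For shRNA #2 minus shRNA #1 it was -0.952, became 0.411 over the 7 members alone, and ran from -2.58 to 0.266 (without shRNA #2 replicate 3). The cause was not tested. The MAFF ratio between hairpins, which did not pass the test, was -0.00537 with upper quartile scaling, which moved the median of all genes there to -0.0800. Of 30 member results, 26 kept direction and call under all alternatives that tested them, the others being that ratio and FOS, FOSL2 and BATF3 with shRNA #2. FOSB with shRNA #2 fell below the filter at a mean of 50 and was not tested there, which left 8 members called. FOSL2 also lost its call in limma without the trend (adjusted p = 0.0610). With the replicate block, shRNA #2 had 7 members called against 9 without it, FOSL2 at 0.20 (adjusted p = 0.0771) and BATF3 at 0.26 (adjusted p = 0.0522) missing the threshold, and shRNA #1 kept a count of 10. The hairpin comparison kept a count of 7. By the correlations of their deviations, the replicate numbers were not taken to pair the samples.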
